A study of Sus scrofa with 12 samples.

Results

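The genes described here are 9 transcription factors that act in early mesoderm and in the forming heart, namely MESP1, MESP2, TBXT (brachyury), EOMES, HAND2, TBX20, NKX2-5, MEF2C and FOXF1. They were chosen by name and looked up by their Ensembl pig symbols among the 19681 genes of the expression tables, and 8 of the 9 were found. TBXT was not analysed here. RNA sequencing was available for 12 libraries, with 3 biological replicates (A, B and C) in each of 4 groups. AOC is a porcine endothelial cell line. IEC2, IEC4 and IEC12 are cells collected on days 2, 4 and 12 of an induction that drives porcine induced pluripotent stem (iPS) cells towards endothelium. Induction began with CHIR99021, an inhibitor of glycogen synthase kinase 3 that activates WNT signalling, until day 2, went on with the growth factors BMP4, FGF2 and VEGF until day 4, and ended in an endothelial growth medium with VEGF. The IEC12 libraries were made from cells that had not yet been sorted for the endothelial surface protein CD31, so they can hold several kinds of cell. The mix of cells in the IEC libraries was not measured. The iPS cells at the start and the sorted cells are not analysed here.

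In vertebrate embryos, WNT, NODAL and BMP signals switch on the T-box factors brachyury and EOMES in the primitive streak, where cells leave the epiblast to form mesoderm. MESP1 and MESP2, a pair of related basic helix-loop-helix factors, follow as the new mesoderm moves away. MESP1 is best known from the precursors of the heart and vessels, and MESP2 from the segmentation of the somites. HAND2, TBX20, NKX2-5 and MEF2C then act together in heart progenitors and heart muscle, while FOXF1 marks lateral plate and splanchnic mesoderm. None of these heart factors is restricted to the heart. HAND2 also acts in limb and neural crest, MEF2C in skeletal muscle, neurons and endothelium, TBX20 in endocardium, and FOXF1 in lung endothelium.

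Values were FPKM (fragment counts divided by transcript length and by library size), a scale corrected for gene length. Comparison between libraries is less sure, because the median difference of all tested genes moved with the scaling, as given below. The FPKM of a library summed to 335976.4 to 457193.7. The number of fragments is not given, but low values fall on fixed steps, and these gave a relative depth of 0.66 in IEC12 replicate A, the shallowest library, and 0.885 to 1.22 in the other 11. Genes of endothelium checked the label of AOC against the IEC libraries, but not the labels of the days. The 9 endothelial markers that were found summed to 292.9 to 418 FPKM in AOC. In the induced cells their sum was 0.85 to 1.71 FPKM at day 2, 1.74 to 1.93 at day 4 and 0.378 to 0.681 at day 12. CDH5 (VE-cadherin) was listed at 0 in all 9 IEC libraries, and PECAM1, which encodes CD31, was at 91.7 to 131 FPKM in AOC and at 0.0198 to 0.554 in the IEC libraries. The libraries of all 3 IEC groups therefore carried little of the summed RNA of these markers at the time of collection. Single genes differed from the sum. NOS3 had means of 0.591 FPKM in IEC4 and 3.58 in AOC, and SOX18 of 0.0712 in IEC12 and 0.0237 in AOC. KDR, a VEGF receptor that was not on this list, was at 2.95 FPKM in IEC2 and 1.36 in AOC. The 7 epithelial and endoderm markers found summed to 317 to 823 FPKM in IEC4, against 13.8 to 21.7 in IEC2, 6.21 to 18.3 in IEC12 and 0.505 to 0.742 in AOC, most of it KRT8. Among them, CDH1, EPCAM, KRT8 and KRT18 had their highest mean in IEC4, whereas FOXA1 was highest in IEC12 (1.97 FPKM, against 0.502 in IEC4) and HNF4A was above 0 only in IEC12. The 4 pluripotent markers found of 8 (NANOG, LIN28A, DPPA5 and KLF4) summed to 10.2 to 11.3 FPKM in IEC4, 1.06 to 2.89 in IEC2, 0.578 to 1.97 in IEC12 and 4.14 to 5.72 in AOC, where LIN28A and DPPA5 were listed at 0. Most of the IEC4 sum was KLF4 (mean 5.23 FPKM, against 4.79 in AOC) and LIN28A (4.27). NANOG was instead highest in IEC12 (0.732 FPKM, against 0.35 in IEC4). The 4 neural markers found of 6 summed to 140.9 to 160.6 FPKM in IEC12, 38.7 to 56.2 in IEC4, 12.2 to 15.2 in IEC2 and 10.3 to 13.7 in AOC, and nearly all of this in the IEC groups was OTX2, which was at 0 in AOC. The 10 smooth muscle and fibroblast markers summed to 80.4 to 112 FPKM in IEC2, 61.5 to 79.6 in IEC12, 50.2 to 63.4 in IEC4 and 22.9 to 36.4 in AOC, mostly COL3A1 in the IEC groups. In such bulk libraries, fewer cells of a type and less RNA per cell cannot be told apart.

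**Figure D1:**
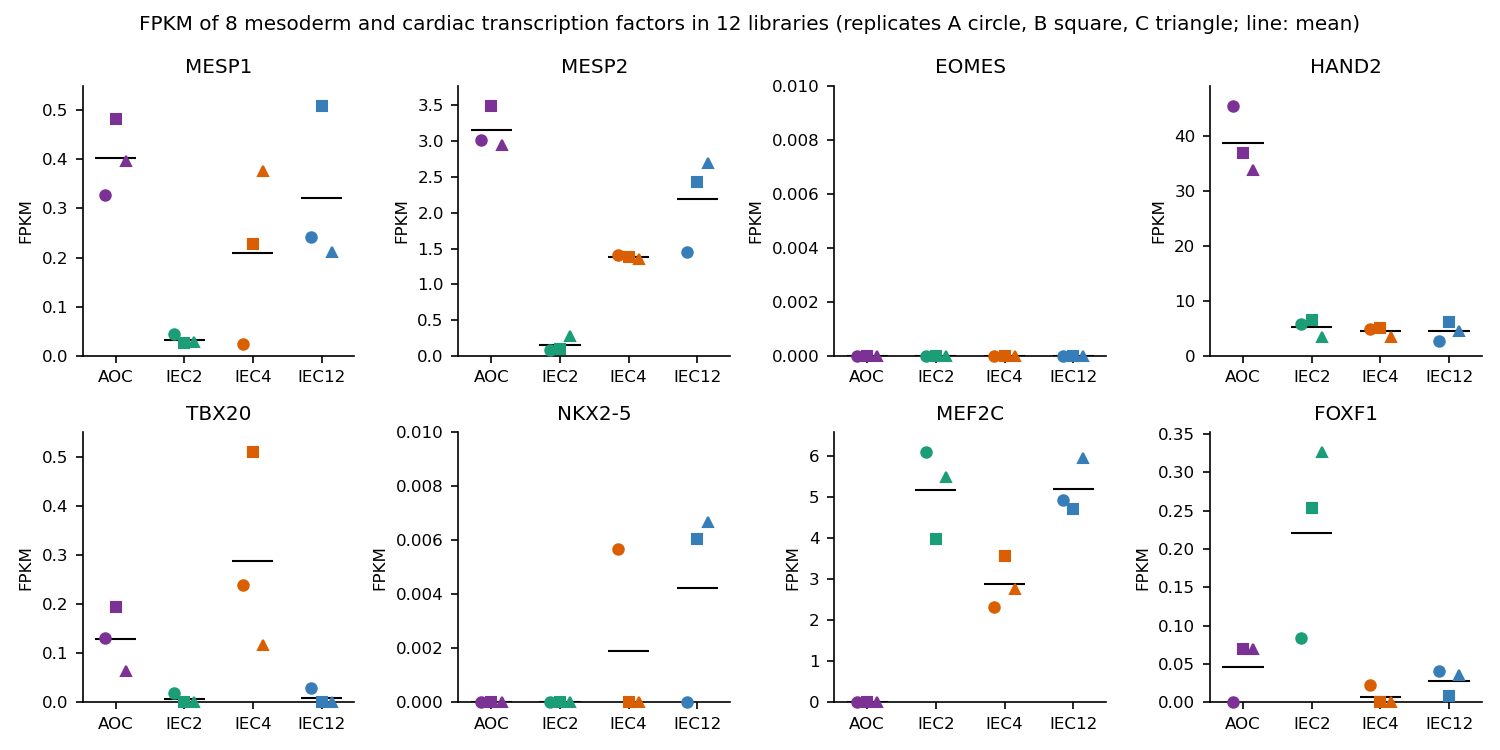
FPKM (linear axis, a separate scale for each gene) of the 8 transcription factors in each of the 12 libraries, by group. Circles, squares and triangles are replicates A, B and C, and the horizontal line is the mean of the 3. HAND2 stood at 33.8 to 45.4 FPKM in AOC and at 6.52 or less elsewhere, MEF2C was almost missing from AOC, MESP2 was lowest in IEC2, and EOMES lay at 0 throughout.

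HAND2 was the most abundant of the 8 genes in AOC and MEF2C and HAND2 led in the IEC libraries, whereas no IEC library reached 1 FPKM for MESP1, EOMES, TBX20, NKX2-5 or FOXF1. Only MESP2, HAND2 and MEF2C reached at least 1 FPKM in at least 3 libraries, the minimum for testing. MESP1, TBX20, NKX2-5 and FOXF1 reached at most 0.51 FPKM in any library, and EOMES was listed at 0 in all 12. HAND2 reached 1 FPKM in all 12 libraries, whereas MESP2 and MEF2C met the minimum through the groups in which they were high. The counts below therefore describe these 3 genes and not all 8.

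Between IEC4 and IEC2, MESP2 and MEF2C of the 3 tested members passed limma's moderated test on log2(FPKM + 1) at a Benjamini-Hochberg adjusted p under 0.05, which 37.3% of 10542 genes passed. MEF2C alone passed between IEC12 and IEC4, where 44.2% of genes passed, and MESP2 alone between IEC12 and IEC2, where 43.6% passed. All 3 passed for AOC against IEC2 and against IEC4, where 63.8% and 69.1% of 11053 genes passed. HAND2 and MEF2C passed for AOC against IEC12, where 58.5% passed. Libraries of the groups compared failed to overlap for 53.5%, 56.3% and 54.4% of all tested genes in these comparisons between days and for 71.5%, 76.2% and 66.3% in those with AOC. Passing the test or standing apart was thus common among all genes. When every gene above 0 was fitted without a minimum level, 22.3%, 26.1% and 24.3% of 18415 genes passed between days, and 41.1%, 47.8% and 38.2% of 18889 genes passed with AOC. With a pseudocount of 0.1 in that fit, an alternative chosen after seeing the data, the shares were 22.1%, 25.9% and 25.5% between days, and AOC set beside IEC2 gave 43.2% and beside IEC12 40.8%. The 3 comparisons with AOC share its libraries, as the comparisons between days share theirs.

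EOMES (ENSSSCG00000040057), the T-box factor of the primitive streak and of definitive endoderm, lies on chromosome 13 of the pig assembly Sscrofa11.1 at chr13:14209590-14216184. It had no value above 0 at days 2, 4 or 12 or in AOC. MIXL1, a homeobox gene of the same streak cells that was on a list of other mesoderm genes, was likewise listed at 0 in all 12 libraries. A value of 0 in these tables can be a failed estimate, and no upper limit can be given for a gene whose size of step is unknown.

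MESP1 (ENSSSCG00000001847) and MESP2 (ENSSSCG00000001848) are neighbours on chromosome 7, at chr7:55322016-55327600 and chr7:55341941-55345824. MESP2 was at 0.087, 0.099 and 0.281 FPKM in IEC2 replicates A, B and C. It was at 1.41, 1.39 and 1.35 FPKM in IEC4, which were the closest replicates of the 4 groups, and at 1.45, 2.43 and 2.7 FPKM in IEC12. In AOC it reached 3.02, 3.49 and 2.95 FPKM. The group means of MESP2 thus stood in the order AOC (3.15 ± 0.294, SD, n = 3), IEC12 (2.19 ± 0.659), IEC4 (1.38 ± 0.0303) and IEC2 (0.156 ± 0.109), and no library of a group overlapped with the next group in that order.

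Between days 2 and 4, MESP2 rose by 1.05 on the log2(FPKM + 1) scale (SE 0.19, 95% interval 0.62 to 1.48, limma adjusted p = 0.00239), an 8.88-fold ratio of mean FPKM. All 3 IEC4 libraries were above all 3 IEC2 libraries. From day 4 to day 12 its difference of 0.40 (interval -0.03 to 0.83, adjusted p = 0.115) did not pass, although the 3 libraries of each day did not overlap. That difference passed without IEC12 replicate A, the shallowest library (0.58, adjusted p = 0.0363), and with median-of-ratios scaling (0.52, adjusted p = 0.0284). Over the whole course, IEC12 exceeded IEC2 by 1.45 (SE 0.19, adjusted p = 0.000296). The summed neural markers, which were nearly all OTX2 in the IEC groups, were also higher on each later day (OTX2 means of 13.1, 48.4 and 149 FPKM). AOC, the highest in MESP2, had no OTX2. The part of OTX2 in the MESP2 values was not tested.

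The endothelial line had the highest MESP2. AOC exceeded IEC2 by 1.85 on the log2(FPKM + 1) scale (SE 0.17, limma adjusted p = 1.56e-06) and IEC4 by 0.80 (SE 0.17, adjusted p = 0.00121). Against IEC12 the difference was 0.40 (interval 0.03 to 0.77), and its adjusted p of 0.0586 missed the threshold. Without IEC12 replicate C it was 0.52 (adjusted p = 0.0309), and with median-of-ratios scaling 0.62 (adjusted p = 0.00267).

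MESP1 was lower than MESP2 in all 12 libraries. Of the summed FPKM of both genes, MESP1 took 21.4% ± 12.5 at day 2, 12.5% ± 10.1 at day 4, 13% ± 5.15 at day 12 and 11.3% ± 1.27 in AOC (mean ± SD, n = 3). Its FPKM was 0.328, 0.481 and 0.397 in AOC replicates A, B and C, and 0.0447, 0.0271 and 0.0275 in IEC2. In IEC4 it was 0.0239, 0.228 and 0.376, and in IEC12 it was 0.242, 0.508 and 0.211. Replicate A of IEC4 therefore lay at the low level of the IEC2 libraries while replicates B and C lay far above them, a split that MESP2 did not show in the same libraries. Whether any reads matched both genes was not tested.

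The low values can be read as whole numbers of steps, where a step is the smallest amount by which a gene's depth-corrected value moved, that is 1 fragment unless all its numbers share a divisor. MESP1 held 2 to 3 steps in each IEC2 library, 2, 18 and 26 in IEC4, 11, 40 and 15 in IEC12 and 20 to 30 in AOC. Per unit of depth, AOC held 12.3 times as many steps as IEC2 (95% exact interval 5.68 to 31.6). Such intervals cover counting error only, and not the spread between replicates. When all genes above 0 were fitted without a minimum level, MESP1 was higher in AOC than in IEC2 (0.44 on the log2(FPKM + 1) scale, limma adjusted p = 0.0085), and this difference passed in all 11 alternatives of that fit. Its IEC12 value was 0.35 above IEC2 (adjusted p = 0.0697) and passed in 3 of 11 alternatives.

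HAND2 (ENSSSCG00000031537, chr14:16460089-16462979), a basic helix-loop-helix factor of the right ventricle, limb and neural crest, was far higher in the endothelial line than in the induced cells. It was at 45.4, 36.8 and 33.8 FPKM in AOC replicates A, B and C. The same gene was at 5.88, 6.52 and 3.42 FPKM in IEC2, at 4.9, 5.14 and 3.42 FPKM in IEC4 and at 2.69, 6.22 and 4.5 FPKM in IEC12. The lowest AOC library, at 33.8 FPKM, thus stood far above the highest induced library, at 6.52 FPKM, and the 3 induced groups overlapped with each other.

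AOC exceeded IEC2 in HAND2 by 2.69 on the log2(FPKM + 1) scale (SE 0.27, limma adjusted p = 3.42e-06), IEC4 by 2.86 (SE 0.27, adjusted p = 2.26e-06) and IEC12 by 2.90 (SE 0.27, adjusted p = 2.33e-06). As ratios of mean FPKM these were 7.34, 8.62 and 8.66. HAND2 did not pass any comparison between days. IEC4 differed from IEC2 by -0.17 (interval -0.82 to 0.48, adjusted p = 0.675), and IEC12 differed from IEC2 by -0.21 (interval -0.87 to 0.44, adjusted p = 0.582), a sign that turned without IEC12 replicate A. IEC12 differed from IEC4 by -0.04 (interval -0.70 to 0.61, adjusted p = 0.915), a sign that turned under median-of-ratios scaling and without IEC4 replicate A or B or IEC12 replicate A. These intervals leave room for a rise of up to 0.61 or a fall of up to 0.87.

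NKX2-5 (ENSSSCG00000036285, chr16:51086014-51089165), the homeobox factor that marks heart progenitors, was listed at 0 in 9 of 12 libraries. Its 3 values above 0 were 0.00568 FPKM in IEC4 replicate A and 0.00604 and 0.0067 FPKM in IEC12 replicates B and C, each of them a single step. No difference was detectable at this depth.

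TBX20 (ENSSSCG00000016662, chr18:38635603-38681690), a T-box factor of heart muscle and endocardium, was found mainly at day 4 and in AOC. It was at 0.24, 0.51 and 0.116 FPKM in IEC4 replicates A, B and C and at 0.132, 0.194 and 0.064 FPKM in AOC. In IEC2 and in IEC12, replicate A alone was above 0, at 0.02 and 0.0295 FPKM. All 3 IEC4 libraries and all 3 AOC libraries were therefore above every IEC2 and IEC12 library. In steps, IEC4 held 51 over its 3 libraries, AOC 18, and IEC2 and IEC12 a single step each. Per unit of depth, IEC4 held 47 times the steps of IEC2 (95% exact interval 8.06 to 1891) and 42.9 times those of IEC12 (interval 7.36 to 1728).

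Without a minimum level, the rise of TBX20 from day 2 to day 4 (0.35 on the log2(FPKM + 1) scale, limma adjusted p = 0.035) and its fall from day 4 to day 12 (-0.34, adjusted p = 0.0328) passed. Each call held in 6 of 11 alternatives. The rise was lost without any single IEC2 library or without IEC4 replicate A, and the fall without any single IEC12 library or without IEC4 replicate A (highest adjusted p = 0.0922). Both were also lost when only the groups compared were fitted. AOC against IEC2 (adjusted p = 0.185) and AOC against IEC12 (adjusted p = 0.206) did not pass on that scale, and each passed in 2 of 11 alternatives, namely a pseudocount of 0.1 and a fit of the groups compared. In the same IEC4 libraries the summed epithelial and endoderm markers (317 to 823 FPKM, with FOXA1 and HNF4A instead highest in IEC12) and pluripotent markers (10.2 to 11.3 FPKM, with NANOG instead highest in IEC12) were also highest, and their part in the TBX20 values was not tested.

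MEF2C (ENSSSCG00000014149), a MADS-box factor of heart and skeletal muscle that also acts in endothelium and neurons, lies at chr2:96122407-96296927, where a long noncoding RNA overlaps it. MEF2C was at 6.09, 3.97 and 5.5 FPKM in IEC2 replicates A, B and C, at 2.33, 3.58 and 2.76 FPKM in IEC4 and at 4.94, 4.72 and 5.96 FPKM in IEC12. In AOC it was at 0.0182, 0.00891 and 0.00442 FPKM. The endothelial line was thus at the floor of the measurement for this gene, with 4, 2 and 1 steps in its 3 libraries against 686 to 1522 in each induced library. The values of IEC4 lay under those of IEC2 and of IEC12, which overlapped with each other.

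AOC was lower in MEF2C than IEC2 by a log2(FPKM + 1) difference of -2.60 (SE 0.18, limma adjusted p = 1.4e-07), than IEC4 by -1.93 (SE 0.18, adjusted p = 1.89e-06) and than IEC12 by -2.61 (SE 0.18, adjusted p = 1.75e-07). The scale understates these differences because AOC is near 0. Per unit of depth, IEC2 held 494 times the steps of AOC (95% exact interval 239 to 1229), IEC4 276 times (interval 134 to 687) and IEC12 500 times (interval 242 to 1244).

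Within the induction, MEF2C fell by 0.67 from day 2 to day 4 (SE 0.20, limma adjusted p = 0.0274) and rose by 0.68 from day 4 to day 12 (SE 0.20, adjusted p = 0.0219), so that IEC12 differed from IEC2 by only 0.02 (interval -0.44 to 0.47, adjusted p = 0.959), a sign that turned with either other scaling and without IEC2 replicate B or IEC12 replicate C. The IEC4 mean was 0.557 of the IEC2 mean and 0.555 of the IEC12 mean. Both calls rested on few libraries. The fall was lost without IEC2 replicate A or C or IEC4 replicate A or C (adjusted p of 0.0651 to 0.0939), and the rise without IEC4 replicate A or C or IEC12 replicate C (0.0523 to 0.0766) and with libraries scaled to equal FPKM totals (0.52, adjusted p = 0.0808). COL3A1, the most abundant of the smooth muscle and fibroblast markers in the IEC groups, was likewise lowest at day 4 among the days. Its means were 93.6, 45.6 and 70.8 FPKM at days 2, 4 and 12 and 5.56 FPKM in AOC. Other markers of that list went the opposite way. ACTA2 (0.0979, 3.11 and 0.0874 FPKM) and COL1A1 were highest at day 4 among the days, and ACTA2 was at 7.49 FPKM in AOC. The part of these markers in the MEF2C values was not tested.

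FOXF1 (ENSSSCG00000038460), a forkhead factor of lateral plate and splanchnic mesoderm, lies at chr6:2579348-2598122 and overlaps MTHFSD in the annotation. FOXF1 was at 0.0836, 0.254 and 0.326 FPKM in IEC2 replicates A, B and C. It was at 0.0223 FPKM in IEC4 replicate A and listed at 0 in IEC4 replicates B and C, at 0.0411, 0.00793 and 0.0351 FPKM in IEC12, and at 0, 0.07 and 0.0694 FPKM in AOC. Every IEC2 library was above every other library, with 77 steps in IEC2 against 3 in IEC4, 8 in IEC12 and 14 in AOC. Per unit of depth IEC2 held 27.9 times the steps of IEC4 (95% exact interval 9.19 to 138).

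Without a minimum level, FOXF1 fell from day 2 to day 4 by 0.27 on the log2(FPKM + 1) scale (limma adjusted p = 0.0232), and it was lower in IEC12 than in IEC2 (-0.24, adjusted p = 0.0331) and in AOC than in IEC2 (-0.22, adjusted p = 0.0176). These calls held in 6, 4 and 7 of 11 alternatives. Each was lost without IEC2 replicate B or C, and the first also without IEC4 replicate B or C, the next without any single IEC12 library and the last without AOC replicate A. All 3 were lost when only the groups compared were fitted (adjusted p of 0.0577, 0.0715 and 0.0734), and IEC12 against IEC2 also with a replicate block (adjusted p = 0.057). The library kit does not mark strand, so reads of overlapping genes could not be told apart by strand. MTHFSD itself had means of 1.57 FPKM at day 2, 1.13 at day 4, 0.877 at day 12 and 1.16 in AOC, where FOXF1 had means of 0.221, 0.00744, 0.0281 and 0.0465 FPKM.

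**Figure D2:**
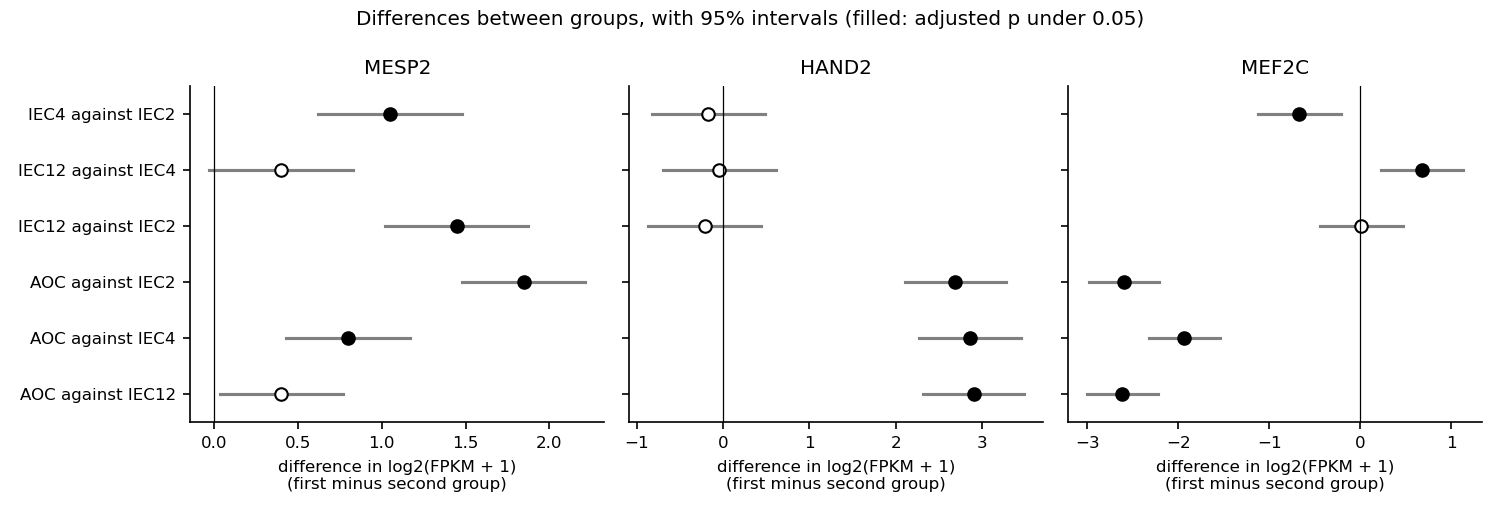
Differences in log2(FPKM + 1) (first group minus second) of MESP2, HAND2 and MEF2C in the 6 comparisons of groups, from limma. Points are estimates, bars are 95% intervals, and filled points have an adjusted p under 0.05. MESP2 rose at day 4, HAND2 differed only where AOC was compared, and MEF2C was lower in AOC and dipped at day 4.

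On the log2(FPKM + 1) scale, none of the 3 tested genes reached the limits of an adjusted p under 0.001 together with an absolute log2 difference above 3, which 1.18%, 0.939% and 1.22% of genes passed in the comparisons between days and 5.47%, 5.17% and 4.41% in those of AOC with IEC2, IEC4 and IEC12. That outcome depends on the scale. With a pseudocount of 0.1, MEF2C passed the same limits for AOC against IEC2, IEC4 and IEC12 (-5.56, -4.74 and -5.58, highest adjusted p = 2.36e-08), HAND2 for AOC against IEC4 and IEC12 (3.09 and 3.15) and MESP2 for AOC against IEC2 (3.74, adjusted p = 1.24e-06) and IEC12 against IEC2 (3.20, adjusted p = 0.000266). On that scale 3.25%, 2.46% and 2.99% of genes passed for IEC4 against IEC2, IEC12 against IEC4 and IEC12 against IEC2, and 14.5%, 15% and 12.4% for AOC against IEC2, IEC4 and IEC12. The median difference of all tested genes was itself 0.20 for IEC4 against IEC2, -0.15 for IEC12 against IEC4, 0.03 for IEC12 against IEC2, and -0.20, -0.45 and -0.21 for AOC against IEC2, IEC4 and IEC12. With median-of-ratios scaling these medians lay between -0.03 and 0.06, and with equal totals between -0.65 and 0.14. Relative to those medians, the rise of MESP2 at day 4, the high HAND2 and the low MEF2C of AOC kept their directions under both scalings.

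The closest relatives of HAND2 and MEF2C had levels of their own. HAND1, the paralogue of HAND2 that is known from extraembryonic mesoderm and the left ventricle, was listed at 0 in all AOC and IEC2 libraries and was at 6.59, 6.38 and 9.98 FPKM in IEC4 replicates A, B and C. It was at 0.147, 0.56 and 1.11 FPKM in IEC12. HAND1 was thus highest at day 4, while HAND2 passed no comparison between days. At day 4 HAND1 made up 62.4% ± 10.5 (SD, n = 3) of the summed FPKM of both genes, against 11.1% ± 7.69 at day 12 and none of it at day 2 or in AOC. HAND1 passed the test for the rise at day 4 (limma adjusted p = 2.39e-05) and for the fall by 2.45 on the log2(FPKM + 1) scale at day 12 (SE 0.25, adjusted p = 0.000105). Apart from IEC12 replicate C, only its IEC4 libraries reached 1 FPKM. HAND1 was therefore tested because it was high at day 4, and these tests are no separate support for that. That the 2 genes changed unequally was not tested.

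Among the 4 MEF2 genes, MEF2A had the highest FPKM in every group. MEF2C supplied 14.5% ± 3.57 of their summed FPKM at day 2, 10.1% ± 1.81 at day 4, 15% ± 1.43 at day 12 and 0.062% ± 0.0395 in AOC (SD, n = 3). MEF2A supplied 51.4% to 74.4% of it as group means. MEF2A and MEF2B were present in AOC at 12.4 ± 1.41 and 3.98 ± 0.45 FPKM, so that the near absence of MEF2C there was not shared by either. MEF2D moved between 0.129 and 0.944 FPKM as group means.

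**Figure D3:**
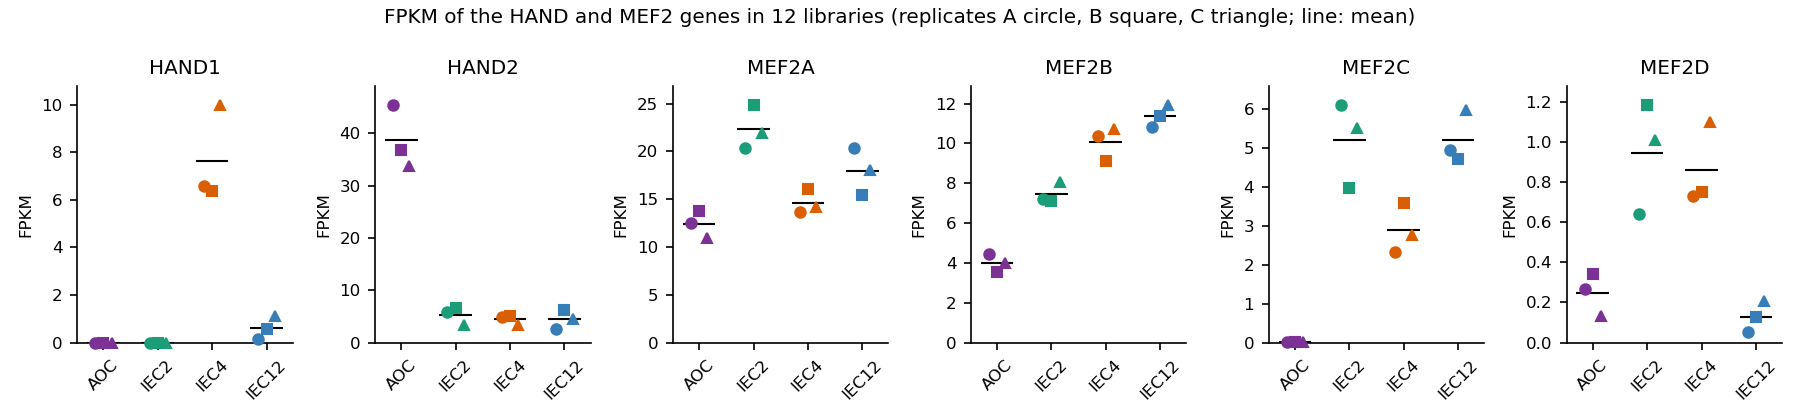
FPKM (linear axis, a separate scale for each gene) of HAND1, HAND2, MEF2A, MEF2B, MEF2C and MEF2D in each of the 12 libraries, by group. Circles, squares and triangles are replicates A, B and C, and the line is the mean. HAND1 lay at 6.38 to 9.98 FPKM at day 4 and at 0 in AOC and IEC2, and MEF2C was near 0 in AOC alone.

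The other genes of these pathways were described from 4 lists of mesoderm and heart genes that left out the members. A gene of these lists could reach the minimum for testing through a single group in which it was high. Of 15 genes of the streak and nascent mesoderm, 11 were found, and WNT3, a WNT ligand needed to form the streak, was the 1 tested. WNT3 was at 3.81, 2.6 and 6.18 FPKM in IEC4 replicates A, B and C, against 0.518, 0.236 and 0.0861 FPKM in IEC2 and 1.22, 1.48 and 1.64 FPKM in IEC12. It rose by 1.98 at day 4 (log2(FPKM + 1) scale, SE 0.26, limma adjusted p = 0.000348) and fell by 1.03 at day 12 (SE 0.26, adjusted p = 0.00996). The other 10 genes found, among them GSC, TBX6, NODAL, FGF4 and FGF8, had group means of at most 0.757 FPKM.

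Of 21 genes of mesoderm and its derivatives, 16 were found and 10 were tested. From day 2 to day 4, 4 rose and 4 fell, with a median of 0.09 over the 10 against 0.20 over all tested genes, where 24.8% of genes passed as higher and 12.5% as lower. Without IEC2 replicate C, 2 fell. The largest rises were of SNAI1 (1.82, limma adjusted p = 0.00391), a repressor active in cells that leave an epithelium, of the ligand BMP4 (1.70, adjusted p = 0.0025) and of LFNG (1.63, adjusted p = 0.00105), a modifier of NOTCH receptors. The largest falls were of KDR (-1.76, adjusted p = 0.00013), the main VEGF receptor, of PDGFRA (-1.74, adjusted p = 0.000341), a receptor of paraxial and cardiac mesoderm, and of SNAI2 (-1.40, adjusted p = 0.000484). Among the days of induction, KDR and PDGFRA were thus highest at day 2, at 2.95 ± 0.898 and 4.24 ± 0.789 FPKM (SD, n = 3), while MESP2 was at its lowest. KDR then stood at 0.152 ± 0.151 FPKM at day 4 and 0.0125 ± 0.0216 FPKM at day 12.

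From day 4 to day 12, 2 genes of that list rose and 3 fell, with a median of 0.28 against -0.15 over all tested genes, where 17.3% of genes passed as higher and 26.9% as lower. The 2 became 4 with median-of-ratios scaling, 0 with equal totals or without IEC4 replicate B or IEC12 replicate C, 1 without IEC4 replicate C or IEC12 replicate B, and 3 without IEC12 replicate A. BMP4 (-2.24, limma adjusted p = 0.00056), MEOX1 (-1.23, adjusted p = 0.00618), a somite factor, and SNAI1 (-1.20, adjusted p = 0.0243) fell. CDH2, which encodes N-cadherin (0.65, adjusted p = 0.0216), and PRRX1 (0.53, adjusted p = 0.0194), a factor of limb and craniofacial mesenchyme, rose. The calls of SNAI1, CDH2 and PRRX1 were each lost in 3 to 5 of 12 alternatives. For SNAI1 these were the fit without a minimum level and those without IEC4 replicate C, IEC12 replicate A or IEC12 replicate B, and CDH2 and PRRX1 were both lost with equal totals, without IEC4 replicate B and without IEC12 replicate C, and PRRX1 also without IEC4 replicate C or IEC12 replicate B.

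In AOC against IEC12, 3 genes of that list were higher and 6 lower, with a median of -0.76 against -0.21 over all tested genes, where 22.4% of genes passed as higher and 36.2% as lower. Fitting only the groups compared left 3 lower, and without a minimum level 6 were higher. BMP4 (2.83, limma adjusted p = 4.49e-06), SNAI1 (1.45, adjusted p = 0.00325) and KDR (1.22, adjusted p = 5.43e-05) were higher in AOC. CDH2 (-4.23, adjusted p = 3.12e-09), PRRX1 (-3.60, adjusted p = 2.13e-09) and SNAI2 (-1.15, adjusted p = 8.21e-05) were lower. CDH2 stood at 17.9 ± 1.97 FPKM in IEC12 and 0.00551 ± 0.00954 FPKM in AOC.

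Of 23 partner transcription factors of the heart, 21 were found and 11 tested. GATA4 and TBX5, which bind DNA together with NKX2-5, were above 0 in only 2 and 1 of the 12 libraries and reached at most 0.0537 FPKM. At day 4, HAND1 and HEY2 (1.41, limma adjusted p = 0.00371), a repressor downstream of NOTCH, passed as higher than at day 2, and 4 genes passed as lower, against 24.8% and 12.5% of all tested genes. The largest falls were of ISL1 (-1.62, adjusted p = 0.000509), a factor of the second heart field, WT1 (-1.32, adjusted p = 0.00185) of the epicardium and TBX18 (-0.90, adjusted p = 0.0118), also of the epicardium. The median of the 11 was -0.06 against 0.20 over all tested genes. Without a minimum level, 4 genes passed as higher.

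From day 4 to day 12, ISL1 alone rose in that list (1.91, limma adjusted p = 0.000225), from 0.592 ± 0.109 to 5.09 ± 1.47 FPKM (SD, n = 3), and its lowest day was day 4, as for MEF2C. HAND1, MEF2D (-0.72, adjusted p = 0.00867) and SRF (-0.53, adjusted p = 0.0271), the partner of myocardin, fell, where 17.3% of all tested genes rose and 26.9% fell, and the median was 0.08 against -0.15. With median-of-ratios scaling, 3 genes rose and 1 fell, and without IEC4 replicate C, 2 rose and 2 fell. SRF was lost in 5 of 12 alternatives, namely median-of-ratios scaling and those without IEC4 replicate A or B or IEC12 replicate A or B. Against IEC12, AOC was higher in HEY2 alone (2.98, adjusted p = 1.46e-06) and lower in 6 genes, where 22.4% of all tested genes were higher and 36.2% lower, with a median of -0.50 against -0.21. Among the 6 lower genes were ISL1, which was listed at 0 in all 3 AOC libraries (adjusted p = 4.18e-07), MEF2B (-1.32, adjusted p = 3.88e-06) and WT1 (-0.97, adjusted p = 0.00132). Without a minimum level, AOC was higher in 2 genes of the list.

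Heart muscle genes stayed low except for TNNC1, which encodes troponin C of slow and cardiac muscle. Of 18 such genes 12 were found, and TNNC1 was the 1 tested. It was at 7.46, 12.2 and 13.5 FPKM in IEC4 replicates A, B and C, at 0.776, 1.21 and 0.88 FPKM in IEC12, and above 0 in 1 IEC2 library (0.0368 FPKM) and 1 AOC library (0.0891 FPKM). TNNC1 rose by 3.53 at day 4 (log2(FPKM + 1) scale, SE 0.22, limma adjusted p = 5.35e-06) and fell by 2.59 at day 12 (SE 0.22, adjusted p = 4.16e-05). Apart from IEC12 replicate B, only its IEC4 libraries reached 1 FPKM. TNNC1 was therefore tested because it was high at day 4, and these tests are no separate support for that. Of the other 11 genes found, NPPB, a natriuretic peptide, reached a group mean of 1.57 FPKM in AOC and MYL3, a myosin light chain, 0.997 FPKM in IEC4, and the remaining 9, among them ACTC1, TNNT2 and MYH6, had group means of at most 0.535 FPKM. HAND1, TBX20, WNT3 and TNNC1 had their highest IEC values in the libraries of day 4, those in which the epithelial and endoderm markers summed to 317 to 823 FPKM and the pluripotent markers to 10.2 to 11.3 FPKM. FOXA1, HNF4A and NANOG of these lists were instead highest in IEC12. LIN28A (0, 4.27 and 0.269 FPKM as means at days 2, 4 and 12), COL1A1 (0.341, 5.59 and 0.0595) and ACTA2 (0.0979, 3.11 and 0.0874) were also highest among the days at day 4. The part of these other cell types in the values was not tested.

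**Figure D4:**
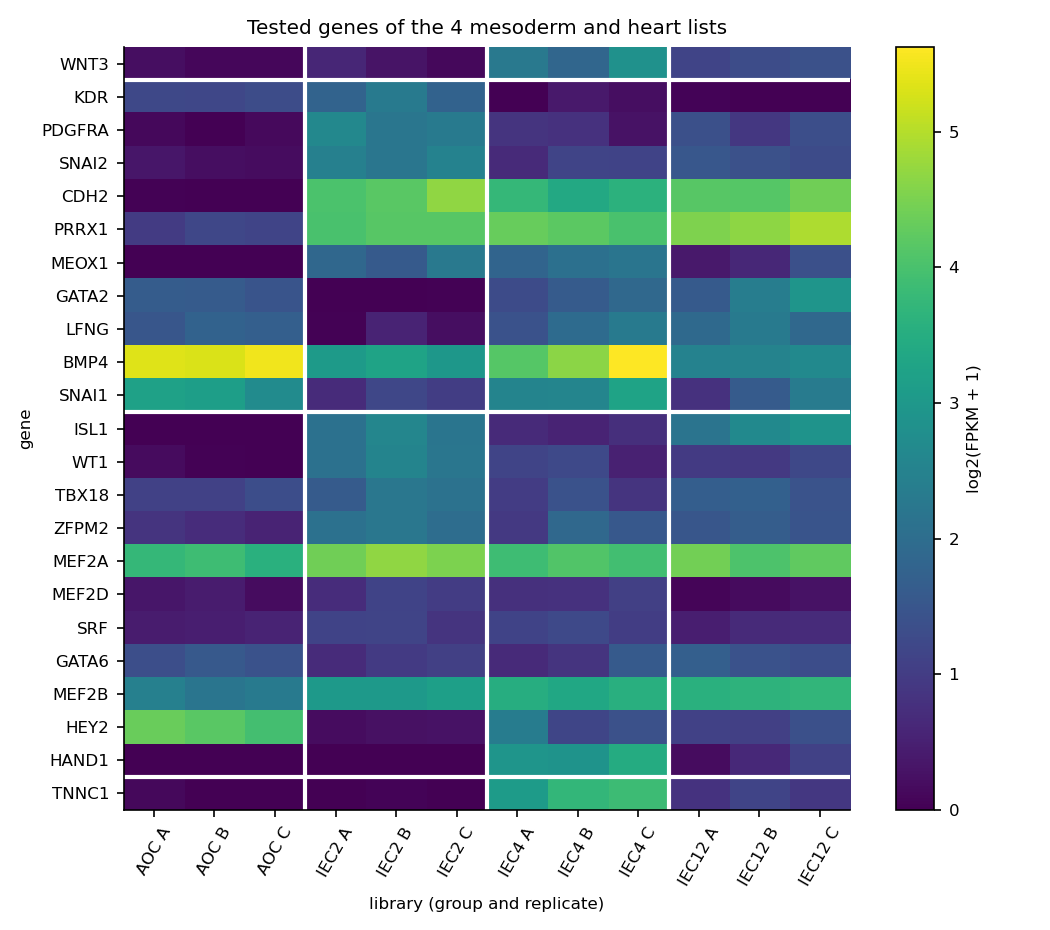
Heat map of log2(FPKM + 1) for the 23 tested genes of the 4 lists (rows) in the 12 libraries (columns, by group and replicate). White lines part the groups and the lists, and lighter colours are higher values. HAND1, TNNC1 and WNT3 are brightest at day 4, KDR, PDGFRA, WT1 and SNAI2 at day 2, and CDH2 and PRRX1 are bright in all IEC libraries and dark in AOC.

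Genes whose pattern was most like that of a member were found by Pearson correlation of log2(FPKM + 1) over the 12 libraries among 9159 genes with a symbol. These correlations describe 12 libraries in 4 groups, so they mostly follow the group means. For MESP2 they were TMEM88 (r = 0.984), NXF1 (r = 0.981) and CPPED1 (r = 0.98). TMEM88 stood at 4.54 ± 1.06 FPKM on day 2, 18.2 ± 3.47 on day 4, 38.1 ± 17.1 on day 12 and 64.5 ± 4.35 in AOC (SD, n = 3), the same order of groups as MESP2.

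For HAND2 they were PDE1A (r = 0.984), MERTK (r = 0.977) and ESAM (r = 0.974), of which ESAM is an endothelial adhesion molecule and was on the list of endothelial markers. ESAM was at 61.2 ± 19.2 FPKM in AOC and at most 0.349 FPKM as a mean of an induced group, whereas HAND2 kept 4.47 to 5.27 FPKM there. For MEF2C they were RWDD3 (r = 0.985), ZKSCAN8 (r = 0.984) and SRP19 (r = 0.982). ZKSCAN8 was at 10.6 ± 1.26 FPKM in IEC2, 6.15 ± 0.684 in IEC4, 12.2 ± 1.82 in IEC12 and 1.17 ± 0.172 in AOC, a low point at day 4 and a lower level in AOC, as for MEF2C.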

How the data were processed

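RNA of AOC, IEC2, IEC4 and IEC12 cells was amplified by Smart-Seq2 and sequenced, and the authors deposited 1 FPKM value per gene and library, computed in Galaxy. The submitters' processing notes name Bowtie2 2.2.3, TopHat2 2.0.12, Cufflinks 2.2.1 and the build susScr11. Positions are those of RefSeq for Sscrofa11.1. Of the 19681 Ensembl identifiers, 13998 had a symbol in the table of gene names used.

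limma 3.58.1 (R 4.3.3, trend = TRUE) was run on log2(FPKM + 1) of the genes that reached 1 FPKM in 3 or more libraries of a fit, which were 10542 in the 9 IEC libraries for comparisons between days and 11053 in all 12 for those with AOC. Genes passed at a Benjamini-Hochberg adjusted p under 0.05 over all tested genes. The p-values set a difference against the spread between replicates, pooled over all groups of a fit and moderated over genes. A fold change on this scale understates the change of low genes. On simulated data for IEC4 against IEC2 (10077 genes), 61 of 100 genes with a log2 difference of 1 and 90 of 100 with 2 were recovered, with 11 false calls. Only 100 genes were changed per size there, whereas 3932 of 10542 genes passed in the real comparison. The adjusted p depends on that share, so these figures need not hold for the real data.

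Relative depth was solved from the steps of 1927 genes under 0.2 FPKM. With it, 95.7% of 1052 low genes lay on whole steps within 0.01 of a step, against 0.0% with disturbed depths. The total number of fragments is unknown. Step ratios carry exact 95% intervals for counting error.

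Named genes were the members, up to 3 called genes per direction and list for IEC4 against IEC2, IEC12 against IEC4 and AOC against IEC12, and the 3 genes most correlated with each tested member. Genes given only as family members, markers or untested list genes were named after their values were seen. The members and lists were chosen with earlier results of these data known. Alternatives were fits with a pseudocount of 0.1, without the filter, of the groups compared alone, with a replicate block, median-of-ratios scaling, equal totals, the study's limits and each library left out. The fit with no filter and a pseudocount of 0.1, the study's limits with that pseudocount, the alternatives of the unfiltered fit and those of the list genes were added after seeing the data. Python 3.11.15, NumPy 2.4.6, pandas 2.3.3 and matplotlib 3.10.9 were used for the rest.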

Additional observations from a re-analysis of the deposited data

How the results depend on the processing

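The main limits are 3 libraries per group, FPKM without fragment numbers, and members so low that a few fragments set their values. Of 234 alternative values of the 3 tested genes, 213 kept their direction and their side of the threshold, 8 no longer passed, 4 newly passed and 9 changed sign. The cause was not tested where a value changed. Without a filter, 4, 2, 2 and 5 members passed for IEC4 against IEC2, IEC12 against IEC4, IEC12 against IEC2 and AOC against IEC2, because more members were tested, and with a pseudocount of 0.1 as well they were 4, 2, 3 and 6, and 3 rather than 2 for AOC against IEC12. Of all genes fitted without a filter, 22.3%, 26.1%, 24.3% and 41.1% passed. With that pseudocount the shares were 22.1%, 25.9%, 25.5% and 43.2%, and 40.8% for AOC against IEC12. For IEC12 against IEC4, 2 passed with median-of-ratios scaling and 0 with equal totals. Of all tested genes, 4722 of 10317 and 4561 of 10649 passed under these scalings. By the study's limits 0 passed in all 6 comparisons on the log2(FPKM + 1) scale, which understates low genes. With a pseudocount of 0.1, chosen for these limits after seeing the data, 0, 0 and 1 passed for IEC4 against IEC2, IEC12 against IEC4 and IEC12 against IEC2, and 2 in each comparison with AOC. The counts at an unadjusted p under 0.05 were those of the main test plus MESP2 for AOC against IEC12. With each library left out, 1 to 2 members passed for IEC4 against IEC2 and 0 to 2 for IEC12 against IEC4. The shares of all genes in those fits are not given here, so these counts describe the 3 tested genes alone. Signs changed for differences that had not passed. HAND2 in IEC12 against IEC4 was 0.15 with median-of-ratios scaling and -0.27 to 0.21 with a library left out, and in IEC12 against IEC2 it was -0.45 to 0.0434. MEF2C in IEC12 against IEC2 was -0.0081 with median-of-ratios scaling, -0.22 with equal totals and -0.13 to 0.12 with a library left out. The share of higher genes among all called moved by more than 10 points in all 6 comparisons. With median-of-ratios scaling it went from 66.5% to 47.9% for IEC4 against IEC2 and from 39.2% to 53% for IEC12 against IEC4. The latter was 25.6% with equal totals. For AOC against IEC4 and IEC12 it went from 32% and 38.2% to 50.7% and 51.1% with median-of-ratios scaling. With equal totals it went from 55.7% to 36.6% for IEC12 against IEC2 and from 41.9% to 31.1% for AOC against IEC2.

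The replicate block left 2, 1, 1, 3, 3 and 2 members past the test in the 6 comparisons, as without it, and changed no call of a tested gene. It lost FOXF1 for IEC12 against IEC2 in the unfiltered fit (adjusted p = 0.057). Same-lettered libraries of a pair of groups deviated together with mean correlations of -0.271 to 0.158 over genes, and not every pair exceeded 0.1 in any comparison, so the letters were not treated as pairs.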
